A study of Mus musculus with 15 samples.

Results

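The cytosolic ribosomal protein genes were taken from the gene expression of 15 mouse kidney cancer tumors. They were the symbols made of Rpl or Rps, a number and no more than a single letter (a, x, y or l) with or without digits after it. Rplp0, Rplp1, Rplp2 and Rpsa were added. The S6 kinases, symbols marked as pseudogenes and genes whose mean normalized count over the 15 tumors was under 100 were left out. Rpl36al, at a mean of 6834, has both a and l after its number and so does not match. Of 18279 genes in the table, 87 symbols matched and 82 passed the minimum, 47 of the large (60S) subunit and 35 of the small (40S) subunit. Among the 82 members, 6 are paralogs or copies of another member (Rpl22l1, Rpl7l1, Rps27l, Rps12l1, Rps3a2 and Rps3a3). The minimum left out Rpl24, Rps4l, Rpl6l, Rpl3l and Rpl39l, and the members just inside it were Rps12l1 with a mean of 111 and Rps3a3 with a mean of 160.4, against 77.6 for Rpl24 just outside.

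Renca is a kidney cancer cell line of BALB/c mice. Female BALB/c mice, 4 to 6 weeks old when bought, received the cells in Matrigel under the skin of the back. Tumors 1 to 5 grew from control cells, which the sample labels call parental and the study's methods describe as transfected with a control knockout CRISPR/Cas9 plasmid. Tumors 6 to 10 grew from *Pbrm1* KO #4 (clone 4) and tumors 11 to 15 from *Pbrm1* KO #18 (clone 18). Both are single cell clones sorted after transfection with *Pbrm1* knockout plasmids and a repair plasmid that carries puromycin resistance and a red fluorescent protein. Each group is 1 cell line, so the genotype and the line cannot be told apart. For a single clone, p-values of the main test measure the spread between tumors within a line. That spread was estimated over the control and both clones together. For all 10 knockout tumors against control both clones were pooled, so that spread also holds the difference between the clones. According to the labels mice were untreated or given PD-1 antibody, without saying which. The tumors held 32924414 to 49099168 reads on genes. *Pbrm1*, the targeted gene, lay at 7452 to 9871 normalized counts in the control tumors and at 2484 to 3138 in the 10 knockout tumors, with no overlap. Markers of the epithelial tumor cells were present in every tumor, with Krt8 at 43750.3 normalized counts or more and Pax8 at 2719 or more. Others of the list were low in some tumors, with Krt19 down to 7, Epcam to 69.5 and Lrp2 to 129.3.

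A ribosome is built from ribosomal RNA and one copy of most ribosomal proteins in each subunit, so a cell makes the proteins in matched amounts. Many of their messenger RNAs start with a C followed by a run of pyrimidines, the 5′ terminal oligopyrimidine tract, through which growth signalling by mTOR sets their translation as a block. Some members also act away from the ribosome, as RPL5 and RPL11 do when they bind MDM2, and others have tissue-biased paralogs that can take their place in the ribosome. PBRM1 is a subunit of the PBAF chromatin remodeling complex, and the comparisons below ask whether its loss went with a change in these messenger RNAs.

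Start sites are shown for the members that passed the test in some comparison, for the regular partners of the paralogs among them, and for Rpl41, Rps24 and Rps28, the 3 members with the highest level per length. The sequences are from RefSeq on GRCm38.p6, whose table held 59 of the 82 members. Each window gives the 15 bases before the annotated start and the 15 bases from it on, on the strand of the gene, and capitals mark a C followed by at least 4 pyrimidines that begins within 5 bases of the start. Rpl8 has no entry.
Rps19: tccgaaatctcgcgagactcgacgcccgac
Rpl37a: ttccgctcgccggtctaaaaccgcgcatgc
Rpl36a: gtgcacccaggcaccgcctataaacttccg
Rpl35a: gcggggcgtgcgtcccacaaggccgcgcgg
Rpl13a: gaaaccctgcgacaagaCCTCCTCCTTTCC
Rps27l: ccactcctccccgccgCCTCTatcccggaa
Rps27: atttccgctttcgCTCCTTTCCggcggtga
Rpl22l1: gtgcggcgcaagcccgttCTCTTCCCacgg
Rpl22: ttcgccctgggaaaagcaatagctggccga
Rpl41: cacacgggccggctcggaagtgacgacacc
Rps24: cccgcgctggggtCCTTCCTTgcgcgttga
Rps28: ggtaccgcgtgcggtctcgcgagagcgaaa
The windows lie at chr7:24884577-24884606 on the plus strand for Rps19, chr1:72711245-72711274 plus for Rpl37a, chrX:134585639-134585668 plus for Rpl36a, chr16:33056438-33056467 plus for Rpl35a, chr7:45128731-45128760 minus for Rpl13a, chr9:66946071-66946100 plus for Rps27l, chr3:90213634-90213663 minus for Rps27, chr3:28805493-28805522 plus for Rpl22l1, chr4:152325711-152325740 plus for Rpl22, chr10:128549154-128549183 minus for Rpl41, chr14:24490663-24490692 plus for Rps24 and chr17:33824548-33824577 minus for Rps28. Where RefSeq gives several starts, the first is shown.

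The pyrimidine run at the start was found at some listed start of 29 of the 59 members (49.2%) and of 21.2% of 27025 symbols in the table. Over the whole promoter (250 bases before the start and 50 after), read on both strands, CCGGAAG, a sequence that ETS family factors can bind, was found in 42.4% of the members and 9.93% of all symbols. GGGCGG, the core of the GC box, was found in 64.4% against 38.2%, and AAGATGGC, the sequence known for YY1, in 10.2% against 3.19%. The E box CACGTG (10.2% against 8.09%) and TATAAA (11.9% against 15.7%) were found at more similar shares. Motifs were allowed to overlap, a match is a description of the letters, and the annotated start can differ from the start used in these tumors.

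The members together took close to the same share of the normalized counts in each group. The share was 3.12% ± 0.212 (SD, n = 5) for control, 3.11% ± 0.264 for clone 4 and 3.05% ± 0.151 for clone 18. Per tumor it was 3.01, 2.84, 3.12, 3.39 and 3.23% in tumors 1 to 5, 2.89, 3.05, 2.90, 3.53 and 3.16% in tumors 6 to 10, and 3.07, 2.89, 3.27, 3.07 and 2.93% in tumors 11 to 15. The groups overlapped, and the highest share (tumor 9) and the second lowest (tumor 12) were both in knockout tumors. The summed 60S members stood to the summed 40S members as 1.52 ± 0.00638 for control, 1.52 ± 0.0255 for clone 4 and 1.52 ± 0.0129 for clone 18. A bulk tumor mixes cancer, immune and stromal cells, so fewer cells of a type and less RNA per cell cannot be told apart.

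Levels were compared between genes only per kilobase of the median GENCODE transcript, which could be set for 79 members. They ranged from 1749 to 73932.9 normalized counts per kb with a median of 21891. The highest were Rpl41, which encodes a very short basic peptide (73932.9), Rps24 (58879) and Rps28 (48617), and the lowest were Rpl13a (1749), Rps20 (3258) and the paralog Rpl7l1 (4459). The rank of Rps20 depends on its length, with a median transcript of 3706 bases against 711.5 over the members. Its mean was 12075 normalized counts. Of the 3 highest, only Rps24 holds a pyrimidine run at the start shown above. The low level of Rpl13a stands beside an overlap in the annotation, where its gene overlaps Gm45713 on the same strand and no row is given for Gm45713. A same-strand overlap with some gene was listed for 34 members, among them Rps10 at a mean of 13098.5. Reads that fall on both genes can be dropped in counting, and their part in the level was not tested. Rpl24, left out by the minimum at a mean of 77.6, overlaps Gm28037 in the same way.

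The members rose and fell together from tumor to tumor. Of the 76 members outside the paralogs and copies, 76 lay above their own mean in tumor 9, 76 in tumor 10 and 75 in tumor 4, against 1 in tumor 6, 4 in tumor 8 and 6 in tumor 12. The median deviation from the gene means on the log2 scale was -0.03, -0.11, -0.01, 0.17 and 0.06 in tumors 1 to 5, -0.13, -0.05, -0.08, 0.20 and 0.13 in tumors 6 to 10, and -0.02, -0.08, 0.09, -0.08 and -0.08 in tumors 11 to 15. Tumors of all 3 groups lay on both sides of 0, so this common movement did not follow the groups.

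**Figure D1:**
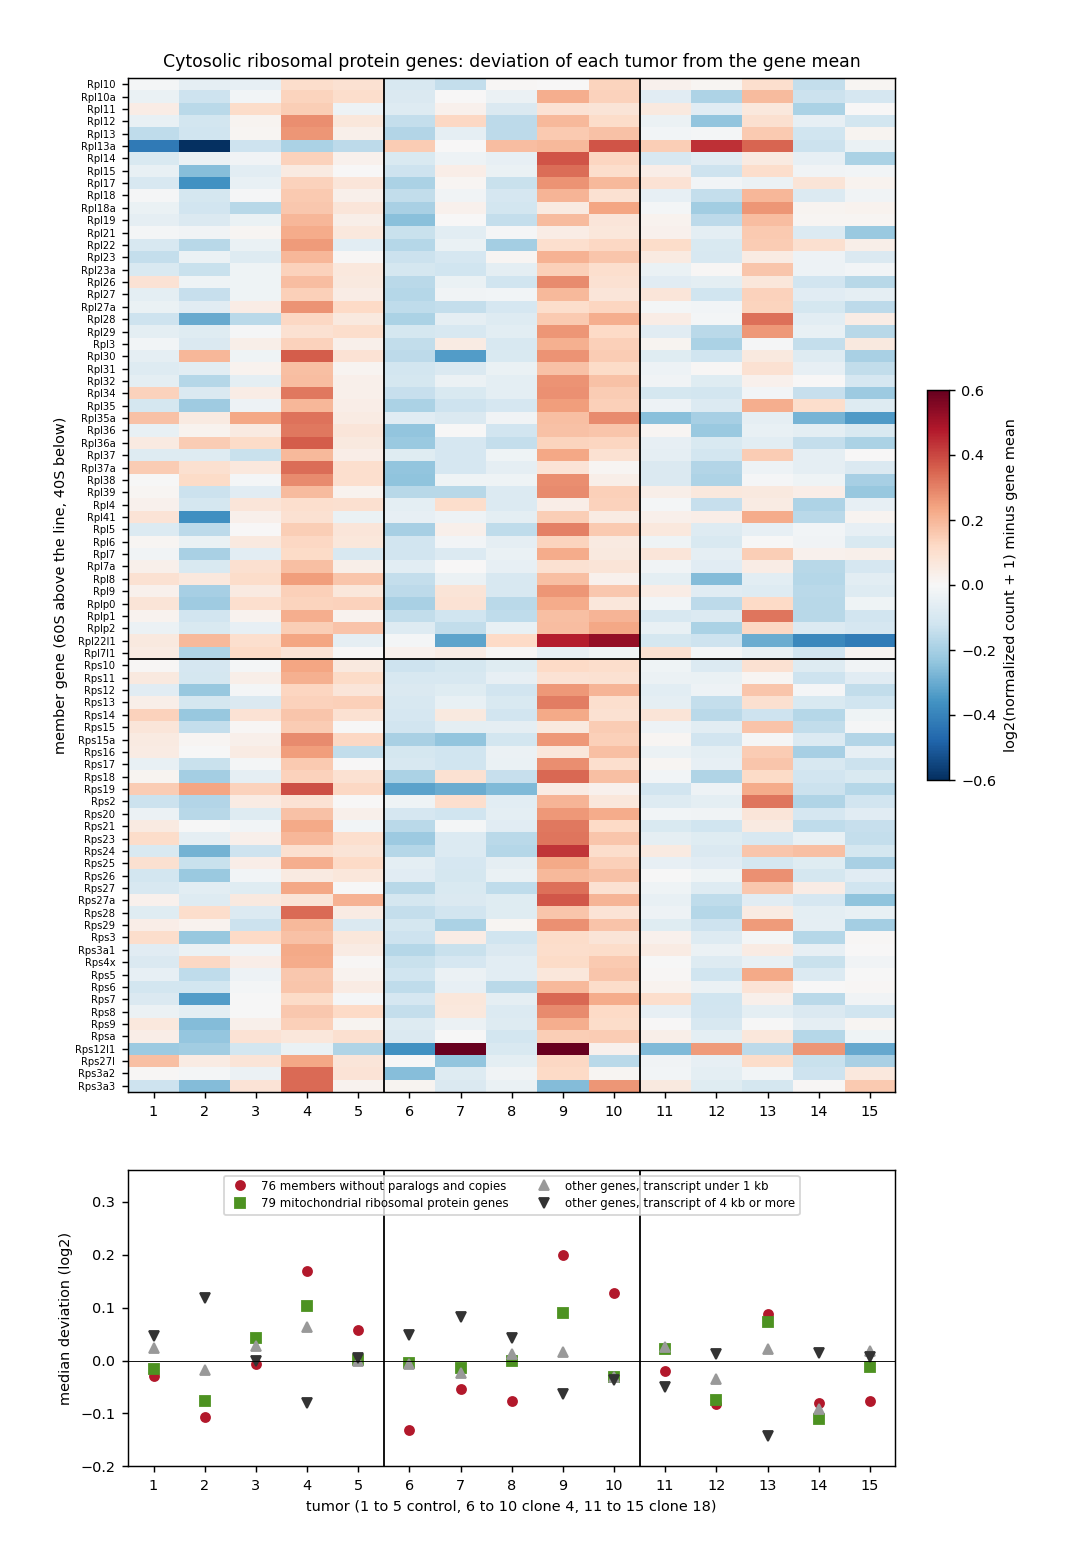
Upper panel, log2(normalized count + 1) of each of the 82 members minus its mean over 15 tumors, with members in rows and tumors in columns. Lower panel, the median deviation per tumor of the 76 members outside the paralogs and copies, of 79 mitochondrial ribosomal protein genes, of 1366 other genes with a median transcript under 1 kb and of 1463 with one of 4 kb or more. Tumors 4, 9 and 10 are red in nearly every row and tumor 6 blue, in groups of both genotypes.

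After removal of the group means, the 75 of these members with a mean of at least 1000 had a mean pairwise Pearson correlation of 0.74 over the 15 tumors. It was 0.64 without tumors 9 and 4, which lay farthest from the median, and 0.73, 0.87 and 0.53 within the control, clone 4 and clone 18 tumors alone. The same measure was 0.35 for 69 mitochondrial ribosomal protein genes, 0.17 for 106 ribosome assembly genes, 0.08 for 36 translation initiation genes and 0.04 over the 7725 genes of that level. The points share libraries and size factors, and the correlations are a description. Each of the 75 correlated with the mean of the others at 0.69 (Rps4x) to 0.96, and 71 of them at 0.7 or more. Some paralogs followed the block less closely, with 0.13 for Rpl7l1, 0.53 for Rps27l and 0.56 for Rpl22l1. The copy Rps3a2 was at 0.77, and Rpl36al, outside the rule, at 0.69. Of the other translation genes, those closest to the block were Eef1b2, a subunit of the elongation factor that reloads EEF1A (0.90), Eif3m (0.88), Btf3 and Naca, the chaperone pair at the ribosome exit (0.86 and 0.82), Fau, which encodes the small subunit protein RPS30 (0.85), and the nucleolar protein gene Npm1 (0.82). On the opposite side were the scaffold gene of cap-dependent initiation Eif4g1 (-0.85) and Heatr1 (-0.83).

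Members are short transcripts, with a median of 711.5 bases against 2179 for genes with a mean of at least 100. Genes with transcripts of 4 kb or more moved against the members in several tumors, with median deviations of 0.12 in tumor 2, -0.08 in tumor 4, -0.06 in tumor 9 and -0.14 in tumor 13. Other genes under 1 kb stayed between -0.09 (tumor 14) and 0.06 (tumor 4). The part of transcript length or RNA quality in the common movement was not tested.

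Loss of *Pbrm1* was first asked of the 10 knockout against the 5 control tumors. Of 82 members, 6 passed an adjusted p of 0.05 (7.32%), where limma called 4040 of 18250 genes (22.1%). Rpl13a rose, and Rps19, Rpl37a, Rpl36a, Rpl8 and Rps27l fell. The median log2 difference of the members was -0.03, against -0.02 for all tested genes. Below 0 were 55 of the 82 member differences and 9659 of the 18250 over all tested genes. The typical standard error of a member was 0.072 on the log2 scale. Differences of at least 0.3 were found for Rpl13a and Rps19 alone. In no member were the knockout tumors wholly apart from the control tumors, a pattern shown by 7.98% of all tested genes.

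**Figure D2:**
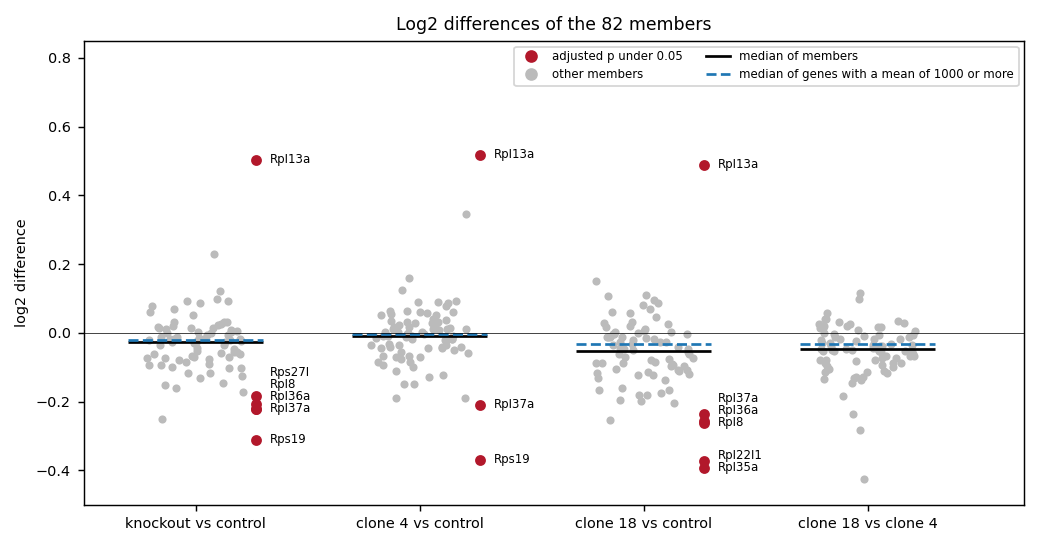
Log2 differences (knockout minus control, or clone 18 minus clone 4) of the 82 members in the 4 comparisons. Red points are members past an adjusted p of 0.05, black lines the member medians (-0.03, -0.01, -0.05 and -0.05) and dashed blue lines the medians of 7725 genes whose mean reached 1000. The grey points crowd around 0 in each comparison.

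Rps19 encodes a protein of the small subunit head needed to mature the 18S ribosomal RNA, and its gene is the one most often mutated in Diamond-Blackfan anemia. Its normalized counts were 8141, 8608, 8042, 9557 and 7984 in control tumors 1 to 5. They were 5857, 5953, 6082, 7574 and 7446 in clone 4 and 6751, 7161, 8530.5, 6679.7 and 6489 in clone 18. Clone 4 lay wholly below the control tumors, and in clone 18 only tumor 13 reached them. Rps19 fell by 0.31 on the log2 scale (SE 0.081, adjusted p = 0.0102, limma), and an exact permutation test over all splits of the tumors gave p = 0.00366. Its log2 difference from control was -0.37 in clone 4 (adjusted p = 0.00919) and -0.25 in clone 18 (adjusted p = 0.0500064, limma), just outside the threshold. The call against control held without any 1 tumor for all knockout tumors and for clone 4, and in clone 18 it was gained without tumor 6, 9, 10 or 13. GENCODE lists 14 pseudogenes named after Rps19, with which reads could be shared.

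Rpl37a encodes a zinc finger protein of the large subunit. It was measured at 14553, 13984, 13669.5, 16531 and 14041 normalized counts in the control group, at 11112, 12204, 12628, 13853 and 13203 in clone 4 and at 12322, 11579, 12811, 12603 and 12333 in clone 18. Among the knockout tumors 9 of 10 lay below every control tumor, the exception being tumor 9. The log2 difference was -0.22 (SE 0.058, adjusted p = 0.0107, limma; exact permutation p = 0.000666), with -0.21 in clone 4 (adjusted p = 0.0422) and -0.24 in clone 18 (adjusted p = 0.0165). No pseudogene of its name is listed. Against all knockout tumors and in clone 18 the call held without any 1 tumor. In clone 4 it was lost without 1 of tumors 1, 2, 4, 5, 6, 7, 8, 11 or 15, with an adjusted p of up to 0.121.

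Rpl13a encodes a large subunit protein that is also known to leave the ribosome after interferon-gamma and to silence inflammatory messenger RNAs. Its normalized counts were 630.2, 492, 776, 743 and 759 in the control group, 941, 849.5, 962, 969 and 1099.5 in clone 4 and 937, 1149, 1079.9, 774 and 824 in clone 18. All knockout tumors but tumor 14 lay above the highest control tumor. Rpl13a rose by 0.50 (SE 0.112, adjusted p = 0.00363, limma; exact permutation p = 0.000666), by 0.52 in clone 4 (adjusted p = 0.0112) and by 0.49 in clone 18 (adjusted p = 0.0114), and it moved against the other called members. These calls held without any 1 tumor, and the 2 clone calls were lost without tumors 1, 10 and 13 together (adjusted p = 0.0586 in clone 4 and 0.0682 in clone 18). Its reads were few for a member, 543 to 987 per tumor, and its overlap with Gm45713 makes its value uncertain.

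Rpl36a and Rpl8 fell less firmly. Rpl36a, whose protein lies at the exit site of the large subunit, was at 5676, 6073, 5917, 7030.2 and 5693 normalized counts in the control group, at 4687, 5103, 4948, 5996 and 5989 in clone 4 and at 5289, 5136, 5231, 4953 and 4787 in clone 18. Clone 18 lay wholly below the control tumors, while tumors 9 and 10 of clone 4 reached into them. The log2 difference was -0.22 (SE 0.067, adjusted p = 0.0244, limma), -0.19 in clone 4 (adjusted p = 0.107) and -0.26 in clone 18 (adjusted p = 0.022). Without control tumor 4, the highest, the first became 0.089, and the last was lost without tumor 4 or 15 (adjusted p of 0.0512 to 0.061). GENCODE lists 4 pseudogenes named after Rpl36a, so that its reads could be shared.

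Rpl8 encodes a large subunit protein next to the center that forms the peptide bond. Its normalized counts were 44300.3, 43436, 44852, 49431 and 46601 in the control group, 37631, 40559, 38886, 47149 and 42254 in clone 4 and 39885, 34693, 39692, 36903 and 39697 in clone 18. Only tumor 9 of the knockout tumors reached the control range. The log2 difference was -0.21 (SE 0.069, adjusted p = 0.0401, limma), -0.15 in clone 4 (adjusted p = 0.197) and -0.26 in clone 18 (adjusted p = 0.0175). The first call was lost when any 1 of tumors 1, 3, 4, 5, 6, 8, 11, 12, 14 or 15 was left out, with an adjusted p of up to 0.113. In clone 18 the call held without any 1 tumor.

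Clone 18 added Rpl35a and Rpl22l1. Against control, limma called 6 of 82 members in clone 18 (7.32%, 1 higher and 5 lower) where 24.7% of all genes were called, and 3 members in clone 4 (3.66%, 1 higher and 2 lower) where 16.8% were called. Both comparisons use the same control tumors. The member median was -0.05 in clone 18 and -0.01 in clone 4, and 62 and 44 of 82 differences were below 0. For the 7725 genes whose mean reached 1000 the medians were -0.033 and -0.003, with 4393 and 3924 differences below 0. The members moved together between tumors, so their differences are not independent of each other.

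Rpl35a encodes a large subunit protein and is another Diamond-Blackfan anemia gene. It lay at 4061, 3728, 4222, 4506 and 3715 normalized counts in the control group, at 3434, 3379.9, 3547, 4071 and 4369 in clone 4 and at 3021, 3128, 3466, 2958 and 2840.2 in clone 18. Clone 18 was wholly below the control tumors and clone 4 overlapped them. The log2 difference was -0.39 in clone 18 (SE 0.081, adjusted p = 0.00204, limma), -0.11 in clone 4 (adjusted p = 0.414) and -0.25 over both (adjusted p = 0.0549). The last was called without tumor 9 or 10. Clone 18 minus clone 4 gave -0.28 (adjusted p = 0.0557). GENCODE lists 6 pseudogenes of its name and an antisense neighbor, Gm17106, and the strand setting of the counting is not given in the sources used here.

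**Figure D3:**
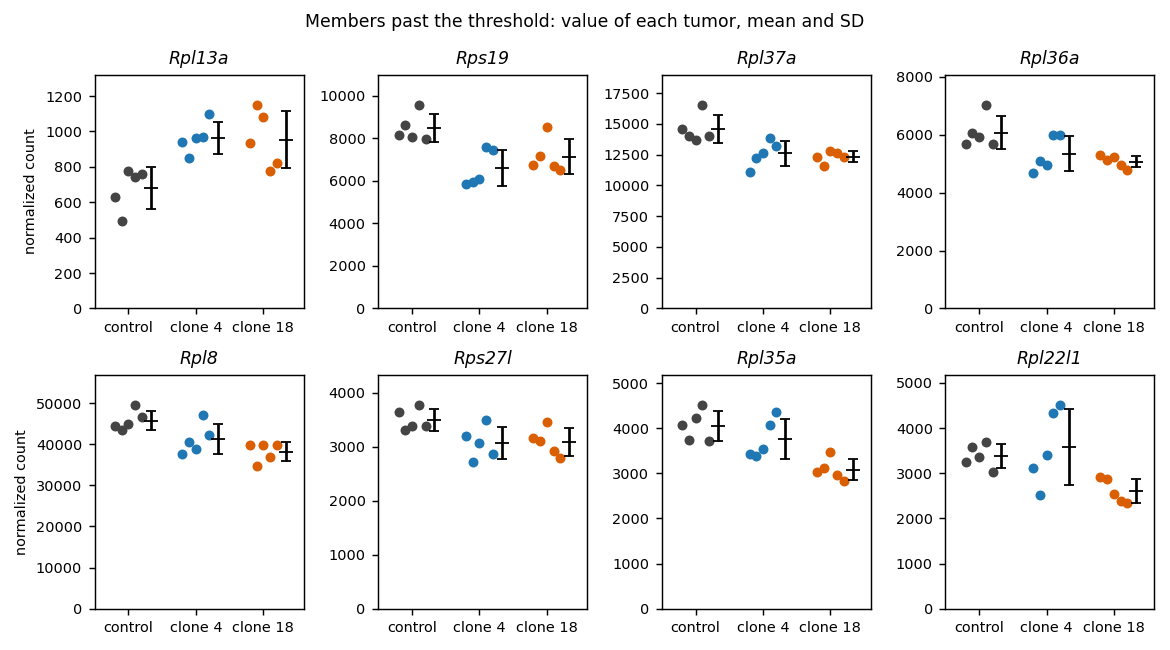
Normalized counts of the 8 members past the threshold in some comparison, with 1 point per tumor (5 control, 5 clone 4 and 5 clone 18, from left to right within a group) and the mean and SD of each group beside the points. Rpl13a lies higher in both clones, Rps19 and Rpl37a lower in both, and Rpl35a and Rpl22l1 lower in clone 18.

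The 2 clones were then compared with each other. None of the 82 members passed the threshold with limma, where 4.62% of all genes did. At an unadjusted p under 0.05 (limma) were 3368 of 18250 tested genes and, of the members, only 2, Rpl22l1 and Rpl35a. On recovered reads edgeR called 0 members and DESeq2 called both of these (adjusted p = 0.017 for Rpl22l1 and 0.027 for Rpl35a). Without tumor 7 limma called both as well, and without tumor 13 it called Rpl35a. The median of clone 18 minus clone 4 was -0.05, with 63 of 82 differences below 0. For the 7725 genes whose mean reached 1000 it was -0.03, with 4631 below 0.

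Paralogs were read against their partners. RPL22L1 is the paralog of RPL22 and can replace it in the ribosome. Rpl22l1 was at 3254, 3578, 3359, 3691 and 3019 normalized counts in the control group, at 3109, 2517, 3404, 4337 and 4504 in clone 4 and at 2909, 2874, 2547, 2391 and 2342 in clone 18. All clone 18 tumors lay below the control tumors, whereas clone 4 spanned both sides of them. The log2 difference was -0.37 in clone 18 (SE 0.127, adjusted p = 0.0406, limma) and 0.05 in clone 4 (adjusted p = 0.842). The clone 18 call was lost without 1 of tumors 1, 2, 3, 4, 13, 14 or 15, with an adjusted p of up to 0.0897. Rpl22 itself was at 9113 ± 1083 (SD, n = 5) in the control group, 8998 ± 939 in clone 4 and 9603 ± 605 in clone 18 and passed the test in no comparison.

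The count of Rpl22l1 was 37.3% of that of Rpl22 in control tumors (range 33.6 to 43.6%), 39.5% in clone 4 (28.1 to 44.9%) and 27.3% in clone 18 (24.3 to 33.2%). Clone 18 lay wholly below control, with a log2 ratio difference of -0.45 (exact permutation p = 0.00794, the smallest that 5 against 5 tumors can give, adjusted p = 0.0952 over 16 paralog tests). Against clone 4 the difference was -0.52 (exact permutation p = 0.0238, adjusted p = 0.0952). Neither passed after adjustment.

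Rps27l, the paralog of Rps27 that p53 is known to induce, was at 3637, 3319.5, 3384, 3768 and 3377 normalized counts in the control group, at 3205, 2724, 3077, 3495 and 2871 in clone 4 and at 3158, 3104, 3466, 2927 and 2801 in clone 18. Tumors 9 and 13 reached the control range and the other 8 knockout tumors lay below it. The log2 difference was -0.18 over both clones (SE 0.063, adjusted p = 0.0416, limma), -0.19 in clone 4 (adjusted p = 0.0867) and -0.18 in clone 18 (adjusted p = 0.0823). Leaving out 1 of tumors 1, 3, 4, 5, 7, 8, 10, 11, 12, 14 or 15 ended the call, with an adjusted p of up to 0.118. Rps27 differed by less than 0.01 in either clone. Rps27l stood at 21.9% of Rps27 in the control group, 19.3% in clone 4 and 19.4% in clone 18 (log2 ratio difference -0.18 for the knockout tumors, exact permutation p = 0.023, adjusted p = 0.0952).

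Rpl7l1, which is known from ribosome assembly rather than the finished ribosome, was flat at 5902 ± 472, 5834 ± 154 and 5786 ± 309 normalized counts in control, clone 4 and clone 18 tumors (SD, n = 5), with log2 differences of -0.01 and -0.03. Its ratio to Rpl7 passed no test, and neither did that of Rpl36al to its paralog Rpl36a. Rpl36al fell with Rpl36a, by 0.16 over both clones (adjusted p = 0.0476, limma). The striated muscle paralog Rpl3l lay below the minimum, at 9.3, 52.0, 41.7, 66.1 and 34.9 normalized counts in the control group, 9.6, 13.4, 9.0, 22.8 and 17.8 in clone 4 and 24.5, 12.3, 13.1, 14.0 and 7.8 in clone 18. The knockout tumors lay low and control tumor 1 among them, and Rpl3l fell by 1.28 (SE 0.379, adjusted p = 0.0213, limma) on 7 to 59 reads per tumor. Its partner Rpl3 differed by -0.03 (adjusted p = 0.816).

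**Figure D4:**
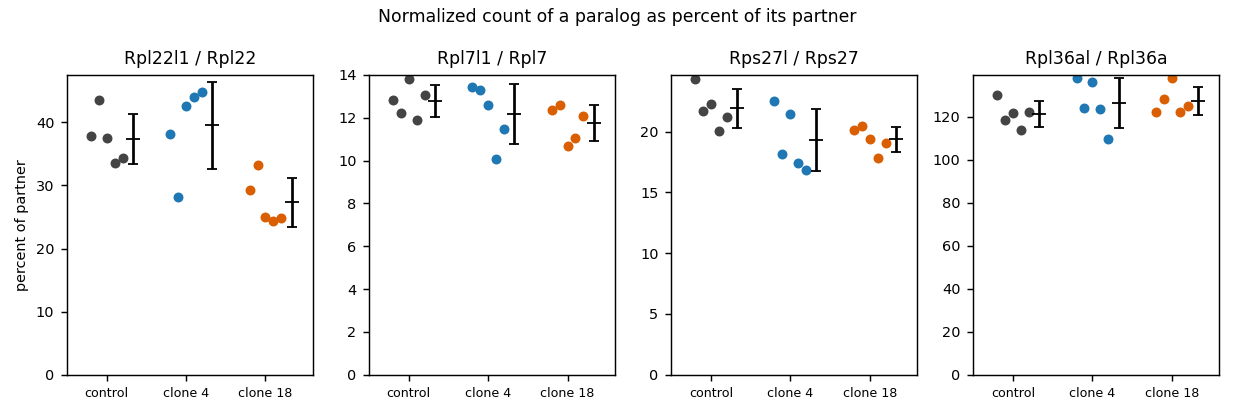
Normalized count of 4 paralogs or copies as a percent of their partner, with 1 point per tumor and the mean and SD of each group of 5. Rpl22l1 relative to Rpl22 is lowest in clone 18 (27.3%), and the other ratios overlap between groups.

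The other paralogs of the list were too low to be members and passed no test, Rpl39l at 2.2 to 38.8 and Rps4l at 24.7 to 111 normalized counts. Rps3a2, Rps3a3 and Rps12l1 are processed pseudogenes in GENCODE and resemble expressed members, so their reads are uncertain. Rps3a2 stayed at 7.01 to 8.11% of Rps3a1 in every tumor, Rps3a3 at 0.401 to 0.586% and Rps12l1 at 0.375 to 0.799% of Rps12. None of the 3 passed the test.

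Apart from Rpl13a, the members named for a particular role were the stalk genes, Rpl5, Rpl11, Rps6, Rpsa and Rps27a, and none of these passed the test in any comparison. The stalk that recruits elongation factors is made of RPLP0, RPLP1 and RPLP2, and their genes differed between knockout and control by -0.07 (adjusted p = 0.583), -0.05 (adjusted p = 0.729) and -0.04 (adjusted p = 0.743). Rpl5 and Rpl11, whose products bind MDM2 together with the 5S RNA, differed by 0.00 and -0.03 (SE 0.077 and 0.062). Rps6, the substrate of the S6 kinases, differed by 0.01 (SE 0.066), and Rpsa, also known as the laminin receptor, by -0.02 (SE 0.071). Rps27a, which is made as a fusion with ubiquitin, had means of 12989.7 ± 937 normalized counts (control, SD, n = 5), 13105 ± 2028 (clone 4) and 11446 ± 608 (clone 18). Its log2 difference was -0.18 in clone 18 (adjusted p = 0.145).

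Some of the lower members lay among neighbors that were lower as well. The median log2 difference, knockout against control, of other genes with a mean of at least 100 within 5 Mb was -0.21 around Rpl35a on chromosome 16 (68 genes, 56 of them below 0), beside -0.25 for Rpl35a. In clone 18 the neighbors were at -0.30 and Rpl35a at -0.39, and in clone 4 at -0.15 and -0.11. Around Rpl36a on chromosome X it was -0.19 (25 genes), beside -0.22. Around Rpl30 on chromosome 15, a member that did not pass (adjusted p = 0.188), the neighbors were at -0.17, as was Rpl30.

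Around Rpl8, also on chromosome 15, the median was -0.09 (147 genes), beside -0.21. For Rps19 the neighbors were at -0.03 (100 genes), for Rpl37a at 0.02 (45 genes), for Rpl13a at 0.02 (93 genes) and for Rps27l at -0.03 (66 genes). Below 0 were 57 of the neighbors of Rps19, 20 of those of Rpl37a, 42 of those of Rpl13a and 38 of those of Rps27l, and in clone 4 the median around Rps19 was -0.07. Rpl37 on chromosome 15 differed by 0.02 where its 26 neighbors were at 0.17, and Rpl3 by -0.03 where 167 were at -0.10. This window was chosen after the data had been seen, and the part of chromosomal position in the differences was not tested.

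**Figure D5:**
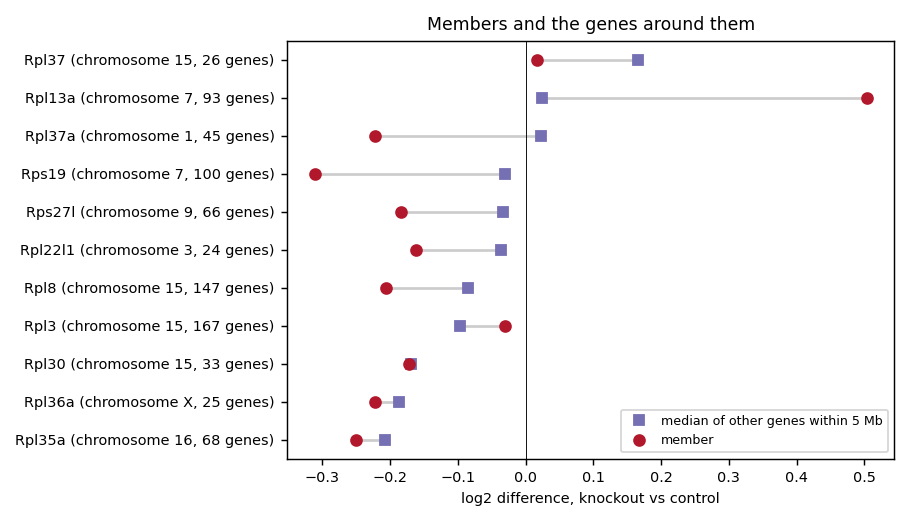
Log2 difference, knockout against control, of the members past the threshold in some comparison and of the other members on chromosomes 15 and 16 (red circles), and the median of other genes with a mean of at least 100 within 5 Mb (purple squares). Rpl35a, Rpl36a and Rpl30 lie within 0.05 of their neighbors, while Rps19, Rpl37a and Rpl13a lie farther from theirs.

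In the rest of the translation machinery the share of genes past the threshold between knockout and control is read against 22.1% of all tested genes, of which 1684 rose and 2356 fell. Of 117 ribosome assembly genes, 8 rose and 12 fell (17.1%), with a median of 0.00. Rsl1d1, a nucleolar protein gene, fell by 0.42 (adjusted p = 0.00182), Utp23 by 0.32 and Gnl3l by 0.31, and the helicase gene Ddx31 rose by 0.30 (adjusted p = 0.000494, limma). Against control the clones went opposite ways. In clone 4, 15 assembly genes rose and 4 fell (16.2%, against 16.8% of all tested genes), with a median of 0.05. In clone 18, 2 rose and 19 fell (17.9%, against 24.7%), with a median of -0.06. Clone 18 minus clone 4 called 7 lower and 0 higher (5.98%, against 4.62% of all tested genes and 6.08% of those whose mean reached 1000). The list median was -0.13 with 109 of 117 differences below 0, against -0.03 with 4631 of 7725 below 0 for genes whose mean reached 1000. Proliferation markers were lower as well, 8 of 8 with a median of -0.17 and 0 past the threshold (limma; 2 at an unadjusted p under 0.05), and their part in the difference was not tested. Among the 7, chosen after their values were seen, are Nop56 (-0.33, adjusted p = 0.00542) and Nop58 (-0.29, adjusted p = 0.016), core proteins of the box C/D particles that guide methylation of ribosomal RNA. Of 20 RNA polymerase I genes (15.0% past the threshold), 1 rose (Polr1c, by 0.28) and 2 fell (Polr2h and Rrn3, the initiation factor of polymerase I, -0.28 and -0.27).

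Of 37 translation initiation genes, 1 rose and 7 fell (21.6%, close to the share of all tested genes), with Pabpc1, the poly(A) binding protein, at -0.43, the helicase gene Eif4a2 at -0.35 and Eif4g1 at -0.27, while Eif4a1 rose by 0.19 (adjusted p = 0.0459, limma). Of 17 elongation and release genes 4 fell (23.5%), among them the translocase gene Eef2 (-0.26), the release factor gene Gspt1 (-0.26) and Eef1d (-0.24). Among 29 genes of growth signalling to ribosomes, 2 rose and 7 fell (31.0%). Deptor, an inhibitor of mTOR, fell by 1.10 (adjusted p = 0.00235), Mycl by 1.02 and Max, the partner of MYC, by 0.33, and Mlx and Mdm2 rose by 0.35 and 0.22. Of 79 mitochondrial ribosomal protein genes, 6 rose and 9 fell (15 in all, a smaller share than over all tested genes), with Mrps6 (-0.45) and Mrpl39 (-0.33) lowest and Mrpl12 (0.38) and Mrpl42 (0.33) highest. Of the ribosomal and associated genes outside the rule, Fau (-0.18, adjusted p = 0.0996) and Rack1 (-0.01) did not pass.

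Many of the genes that fell in these lists lie on 2 chromosomes. Of 303 genes in these lists, 11 lie on chromosome 16 and 10 of them fell, and 20 lie on chromosome 15 and 10 of them fell. Among them are Rsl1d1, Rrn3, Polr2h, Eif4a2, Eif4g1, Gspt1, Mrps6 and Mrpl39 on chromosome 16 and Pabpc1, Utp23, Eef1d and Deptor on chromosome 15. Of all tested genes, 33.8% of 544 on chromosome 16, 23.1% of 675 on chromosome 15 and 12.9% of 18250 on all chromosomes fell. The members hold 1 gene on chromosome 16 and 4 on chromosome 15. This count, too, was made after the values had been seen.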

How the data were processed

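RNA of 15 tumors was sequenced. Per the sources, the authors used TopHat2 for alignment (mm10), HTSeq for gene counts and DESeq for normalization by size factors. Versions, annotation and strand setting are not given in the sources used here. The deposited values are therefore a signal, normalized counts rounded to 0.1. They were whole multiples of 1 step per tumor (100.0% of the values up to 8000 within 0.1 of a whole read), which gave back whole reads for the count tests, 32924414 to 49099168 per tumor.

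Of 18279 genes, 29 at 0 in all tumors were left out. Log2(normalized count + 1) was tested with limma 3.58.1 with trend, 10 knockout against 5 control tumors in 1 fit and the 3 groups in another, and all p-values were adjusted over 18250 genes (Benjamini-Hochberg, 0.05). A fold change on this scale understates that of low genes. Exact permutation tests were two-sided, over all splits of the tumors, and can give no p below 0.000333 (10 against 5) or 0.00794 (5 against 5). Paralog ratios made 1 family of 16 tests. The members and the lists of other genes and cell type markers were chosen with earlier results of these data known, and a list's count and median are descriptions. Named members were the 5 largest rises and falls past the threshold in each comparison, paralog pairs, 9 members with known roles, the 3 highest and lowest per kb and those on chromosome 16. Of other lists, the 3 largest changes each way with a mean of at least 10 could be named, and genes of the other lists close to or opposite the block were named after their values were seen. Lengths and positions are from GENCODE M21 on GRCm38, promoters from RefSeq on GRCm38.p6. Alternatives were other pseudocounts, filters and scalings, edgeR 4.0.16, DESeq2 1.42.0, a two-sample test and left-out tumors. The scripts were tested on simulated data. Python 3.11.15 and R 4.3.3 were used.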

Additional observations from a re-analysis of the deposited data

Results flagged for a closer look

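Of 135 groups of 5 tumors looked at (the named members, the share, the common movement and the 4 paralog ratios), 6 held a tumor far from the other 4 by Dixon's criterion, and chance alone would give about 1 in 20. All 6 are members that moved with the block in that tumor. In control tumor 4, Rpl22 was at 10983 normalized counts (the other 4 at 8207 to 8963) and Rps27 at 18791 (14964 to 15933). In control tumor 2, Rplp0 was at 19206 (23525 to 24500.2) and Rpsa at 28409 (34322 to 35703). In clone 18, Rplp1 was at 26856 in tumor 13 (19156 to 20299) and Rpl39 at 5432 in tumor 15 (6499.6 to 6633).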

How the results depend on the processing

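Rpl13a, Rps19 and Rpl37a were called between knockout and control under every alternative run and without any 1 tumor. Counts of members called (6, 3, 6 and 0 for knockout, clone 4 and clone 18 against control and clone 18 against clone 4) ran without 1 tumor from 3 to 8, 2 to 4, 4 to 7 and 0 to 2. The knockout count fell to 3 without control tumor 4 and under a correction for transcript length. Clone 4 fell to 1 without tumors 1, 10 and 13. Clone 18 fell to 3 under quantile normalization and when scaled to the members. Clone 18 against clone 4 rose to 2 without tumor 7, to 1 without tumor 13 or under scaling to the total and to 2 under DESeq2 and the length correction. Rpl13a in clone 18 was not called by a two-sample test per gene in place of limma (adjusted over all genes, 0.0746). The causes were not tested. The length correction and the scaling to the members were added after the data had been seen.

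Member medians stayed within 1 SD between tumors (0.106, log2) under each alternative, but their sign did not hold in the comparisons against control. Without 1 tumor they ran from -0.07 to 0.00 (knockout; 0.00 without tumor 4), -0.05 to 0.03 (clone 4), -0.09 to -0.02 (clone 18) and -0.08 to -0.01 (clone 18 against clone 4), and under other settings from -0.06 to 0.02, -0.05 to 0.04, -0.09 to 0.00 and -0.05 to 0.00. The 0.00 of clone 18 against clone 4 came from scaling to the members, which fixes their median in each tumor beforehand. The other settings gave -0.02 or lower in that comparison. The shares of counts ran from 3.05 to 3.19%, 3.00 to 3.16% and 2.99 to 3.09% in control, clone 4 and clone 18. Of the values of single named members under alternatives, 78 lost and 22 gained a call and no called value changed sign. No paired analysis was possible because the tumor numbers of the 3 groups name separate mice. The lowest counts among named members were those of Rpl13a (543 to 987 reads), Rps3a3 and Rps12l1.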

Other observations

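Markers of other cells differed between the groups beside the calls above. Macrophage genes were mostly lower in the knockout tumors, with 7 of 8 differences below 0, 1 above it and 5 lower past the threshold (limma). In clone 18 against control, 6 of them fell and 1 rose past the threshold. Their summed level was 80159.7 to 105366 normalized counts in control tumors, 62616 to 78592 in clone 4 and 56835 to 76367 in clone 18. Of 8 T cell genes 2 fell past the threshold (sums of 445.6 to 1374, 473.6 to 745.2 and 466 to 583.4). All 8 differences were below 0, with a median of -1.25 and 6 at an unadjusted p under 0.05 (limma, against 6134 of 18250 tested genes). These sums rest largely on Lck, with a mean of 479 normalized counts against 37 or less for each of the others. Of 5 B cell genes 3 fell (1328 to 2985, 1154 to 1640.4 and 767.4 to 1139.6), with Cd79a at 0 in 1 tumor. The other 2 differences were above 0, and in clone 4 against control 1 gene rose and 2 fell (limma). The B cell sums rest largely on Pax5 and Ighm, with means of 695 and 664 normalized counts against 58.2 or less for each of the others. Of 6 neutrophil genes 2 fell (755.8 to 1712, 502.4 to 1861 and 503.9 to 806.1), with Ly6g at 0 in 8 tumors and Retnlg in 4. Of 8 epithelial tumor genes 1 rose and 1 fell (114503 to 138535, 98305 to 127970 and 104276 to 120565). Their part in the differences of the members was not tested.

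No endothelial (6 genes), fibroblast (6), skeletal muscle (8), red cell (4) or proliferation (8) marker passed between knockout and control. Of the 8 muscle markers, 7 were higher in the knockout tumors and 1 lower, with a median log2 difference of 2.16. Against control, 1 of them passed in clone 18 (limma, 12.5% against 24.7% of all tested genes, median 3.00) and 0 in clone 4 (median 0.91). Summed muscle genes reached 852.3 to 2034 normalized counts in tumors 9, 10, 11, 14 and 15, of which the block of members was high in 9 and 10 and low in 11, 14 and 15, and stayed at 264.6 or less in the other 10. Muscle markers at 0 in some tumors were Myh4 (5 tumors), Myh1 (4), Acta1 (2) and Tnnt3 (2). Summed proliferation genes were 46266 to 64858 in control tumors, 50244.0 to 66087 in clone 4 and 46482 to 61614 in clone 18. Summed endothelial genes ran from 5030.0 to 11374, fibroblast genes from 16927 to 181087 and red cell genes from 836.7 to 6015 over all tumors.

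The table also holds 48 pseudogene symbols of ribosomal protein genes. They summed to 0.951% of the members' counts, and 21 had a mean of at least 100.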
